A study of Mus musculus with 6 samples.

Results

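The 2 urea transporter genes (Slc14a1 and Slc14a2), the 4 genes for carriers of organic osmolytes (Slc5a3, Slc6a12, Slc6a6 and Slc38a2) and Nfat5 were described in kidney cortex of I-PpoI mice and WT mice. They were taken by gene symbol and are 7 of the 24421 genes in the count table. They were selected on count values of these same 6 libraries, with Slc14a2 and Slc5a3 already known to stand higher in I-PpoI cortex, so their I-PpoI against WT values are a description and carry no p-value. All 7 passed the filter on low counts, which kept 13977 genes.

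RNA was sequenced from 3 I-PpoI libraries (titled PT-I_Ppo-1) and 3 WT libraries. The I-PpoI mice express I-PpoI, a homing endonuclease that leaves DNA double-strand breaks, in proximal tubular epithelial cells, and the WT mice are wild type. The promoter or Cre line, the strain, the age and the sex are not given in the sources used here. The labels do not say whether the libraries are from separate mice. P-values therefore measure only how far these libraries spread, which may be technical. Totals were 14290109 to 18045335 read pairs in I-PpoI libraries and 13582540 to 20861021 in WT libraries. The names of 3 libraries carry a hyphen before their last number (I-PpoI replicate 3, WT replicates 2 and 3) and those of the others do not. These forms, which the labels do not call a batch, lay apart on the first principal component (43.1% of the variance), at 11.8 to 21.5 with a hyphen and -30.2 to -0.54 without. Values within each form are therefore given beside the pooled ones. This separation was known before the form was used in any test, so p-values from such tests are not independent of it. WT replicate 1, the only WT library without a hyphen, had a score of 29.2 on the second component, and the other 5 libraries had scores of -10.5 to 0.13.

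The kidney builds a gradient of salt and urea towards the tip of the medulla, and this gradient lets it concentrate urine. The Slc14a2 products (UT-A) carry urea across the inner medullary collecting duct and the thin descending limb, and the Slc14a1 product (UT-B) carries it across descending vasa recta and red blood cells. Cells in this milieu balance the salt outside by taking up or making organic osmolytes, which are myo-inositol, betaine, taurine, sorbitol and glycerophosphocholine. The transcription factor NFAT5, also called TonEBP, switches on several of the genes involved when tonicity rises. Both urea transporters are usually low in cortex.

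In I-PpoI cortex 5 of the 7 genes stood higher in every library than in any WT library, namely Slc14a1, Slc14a2, Slc5a3, Slc6a12 and Slc38a2. Of all genes tested, 9.23% were higher throughout in I-PpoI and 7.74% lower throughout, 17% in all. The difference was 4.98-fold for Slc14a2, 2.59-fold for Slc6a12, 2.18-fold for Slc14a1, 1.49-fold for Slc5a3 and 1.37-fold for Slc38a2. Nfat5 and Slc6a6, the taurine carrier, overlapped between the groups. The median log2 fold change of the 7 genes was 0.57, against 0.0004 over all genes tested. It was above 0 for 6 of the 7 genes, as it was for 50.1% of all genes, with 49.9% below 0. edgeR's quasi-likelihood test called 0 of the 7 at an adjusted p of 0.05 over all genes, where it called 0.136% of the genes (19 higher and 0 lower, or 897 higher and 784 lower with p under 0.05 unadjusted). With the name form as a term it called Slc14a2 and Slc5a3, both higher, and 0.458% of all genes (0.351% higher and 0.107% lower). DESeq2 called Slc14a2 and Slc6a12, and over all genes 126 higher and 61 lower. The genes were chosen in this contrast, so nothing is read from these calls.

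**Figure D1:**
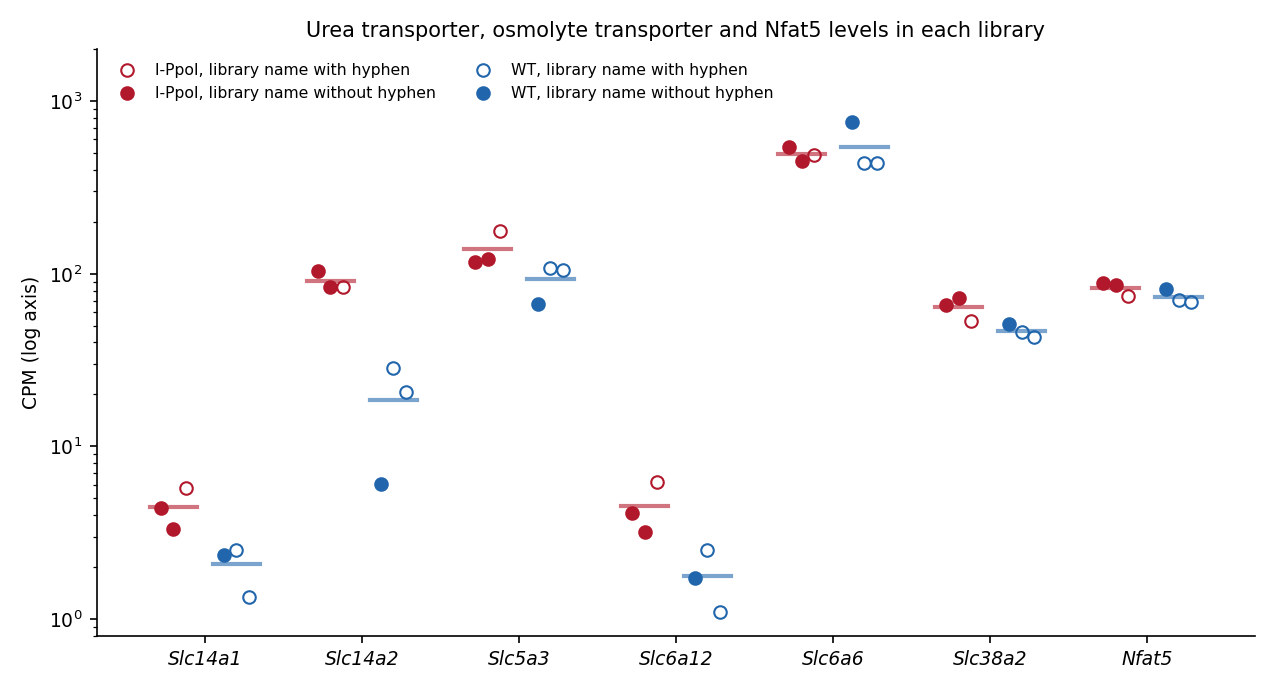
CPM of each gene (log axis) in the 3 I-PpoI libraries (red) and the 3 WT libraries (blue), with a bar at each group's mean; open circles are libraries whose names carry a hyphen. Slc14a2 lies at 83.8 to 103 CPM in I-PpoI and 6.07 to 28.6 CPM in WT, while Slc6a6 and Nfat5 overlap between the groups.

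Slc14a2 (chromosome 18, 78146144 to 78596950, mm10, minus strand, 24 exon blocks) encodes the UT-A urea transporters. It was at 103, 84.1 and 83.8 CPM (read pairs scaled to a fixed library total with TMM factors) in I-PpoI replicates 1, 2 and 3, against 6.07, 28.6 and 20.8 CPM in WT replicates 1, 2 and 3. The I-PpoI libraries lay close together, and the WT libraries were spread, with replicate 1 the lowest. Means were 90.4 ± 11.1 CPM in I-PpoI and 18.5 ± 11.4 CPM in WT (SD, n = 3 each). In the edgeR fit this was a log2 fold change of 2.32 ± 0.42 (SE). Only 7 of 13977 genes had a higher fold change. Within hyphenated names the log2 difference was 1.78, and within plain names, where it rests on WT replicate 1, it was 3.94. Without WT replicate 1 the log2 fold change was 1.88.

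Slc14a1 (chromosome 18, 78100091 to 78142119, minus strand, 11 exon blocks) encodes UT-B and lies next to Slc14a2, with 4024 bases between them. No other gene in the count table overlaps the exons of either. Few reads fell on it: 83, 60 and 81 read pairs in I-PpoI replicates 1 to 3, and 49, 33 and 27 in WT replicates 1 to 3. These are 4.39, 3.31 and 5.74 CPM in I-PpoI and 2.36, 2.499 and 1.34 CPM in WT. Every I-PpoI library lay above every WT library, though the gap between the nearest was below 1 CPM. On the log2 scale the difference was 1.12 ± 0.30 (SE), with 1.65 within hyphenated and 0.69 within plain names. The read density of Slc14a2 per exon length was 18.2, 19.7 and 11.3 times that of Slc14a1 in I-PpoI libraries, and 1.996, 8.89 and 11.99 times in WT libraries. These ratios overlapped, since I-PpoI replicate 3 lay under WT replicate 3.

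Among the osmolyte carriers, Slc6a12 had the largest fold change. It encodes the betaine and GABA transporter BGT1 (chromosome 6, 121346697 to 121365773, plus strand, 15 exon blocks). It had 78, 58 and 88 read pairs in I-PpoI replicates 1 to 3, against 36, 33 and 22 in WT replicates 1 to 3. In CPM it was at 4.13, 3.20 and 6.24 in I-PpoI and 1.73, 2.499 and 1.10 in WT. I-PpoI replicate 3 was the highest of the 6 and WT replicate 3 the lowest, and the groups did not overlap. The fitted log2 fold change was 1.37 ± 0.34 (SE), with 1.91 within hyphenated and 1.07 within plain names. Its profile over the libraries was close to that of Slc14a1, from which it differed by a root mean square of 0.18 once the mean log2 CPM of each gene was taken off, the smallest such value between any of the 7 genes except that of Nfat5 with Slc38a2 (0.15).

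Slc5a3 encodes the myo-inositol transporter SMIT1 (chromosome 16, 92058322 to 92087473, plus strand, 2 exon blocks). It was at 117, 121 and 177 CPM in I-PpoI replicates 1 to 3, against 66.8, 108 and 104.5 CPM in WT replicates 1 to 3. The groups did not overlap, but in each of them the hyphenated libraries were higher than the plain ones. The log2 fold change was 0.57 ± 0.21 (SE), and 0.78 ± 0.07 (SE) with the name form as a term. Within hyphenated names the difference was 0.74 and within plain names 0.83. It was 0.36 without I-PpoI replicate 3 and 0.38 without WT replicate 1. Slc5a3 shares 145 exon bases, 1.33% of its exon length, with Mrps6, a gene for a mitochondrial ribosomal protein on the same strand. Mrps6 was at 140 ± 25.4 CPM in I-PpoI and 78.6 ± 6.28 CPM in WT (SD, n = 3 each; log2 fold change 0.83 ± 0.13, edgeR adjusted p = 0.0708). Adding the name form gave an edgeR adjusted p of 0.0452.

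The stretches of 250 bases before the transcript starts of Slc6a12 and Slc5a3, from RefSeq on GRCm38.p6 (mm10), are shown because NFAT5 is known to act through tonicity-responsive enhancers, whose core is TGGAAA. The core was searched on both strands and is in capitals where found. The Slc6a12 stretch is chr6:121342324-121342573, plus strand, before a start 4123 bases upstream of the first exon in the count table. The Slc5a3 stretch is chr16:92058072-92058321, plus strand.
Slc6a12: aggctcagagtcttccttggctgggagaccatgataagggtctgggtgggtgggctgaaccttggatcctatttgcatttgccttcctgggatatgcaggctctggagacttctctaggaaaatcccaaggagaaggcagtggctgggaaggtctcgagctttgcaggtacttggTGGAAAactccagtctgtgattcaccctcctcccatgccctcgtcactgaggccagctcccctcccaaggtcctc
Slc5a3: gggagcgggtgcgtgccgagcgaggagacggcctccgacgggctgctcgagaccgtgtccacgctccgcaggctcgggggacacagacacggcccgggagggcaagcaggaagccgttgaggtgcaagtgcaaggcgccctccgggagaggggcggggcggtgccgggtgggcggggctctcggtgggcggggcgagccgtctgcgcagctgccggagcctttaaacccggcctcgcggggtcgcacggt
The core begins 75 bases before that start of Slc6a12, on the plus strand. It was in 1 of the 5 Slc6a12 stretches and not in the single stretch of Slc5a3, Slc38a2 or Nfat5. These 4 of the 7 genes were matched. Of the 32851 such stretches for all genes, 18.58% held it. A match is only a description of the letters.

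Slc38a2 encodes SNAT2, a carrier of neutral amino acids that cells also use as osmolytes (chromosome 15, 96687392 to 96699698, minus strand, 16 exon blocks). It was at 66.1, 72.2 and 53.1 CPM in I-PpoI replicates 1 to 3, against 51.0, 46.3 and 43.0 CPM in WT replicates 1 to 3. The groups did not overlap, with I-PpoI replicate 3 just above WT replicate 1. Its log2 fold change was 0.45 ± 0.12 (SE), with 0.25 within hyphenated and 0.44 within plain names.

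Slc6a6 encodes the taurine transporter TauT (chromosome 6, 91684067 to 91759063, plus strand, 15 exon blocks). It was at 544, 449 and 489 CPM in I-PpoI replicates 1 to 3, against 756, 436 and 441 CPM in WT replicates 1 to 3. WT replicate 1 was the highest of all 6 libraries and the other WT libraries were the lowest, so the groups overlapped. Its log2 fold change of -0.14 ± 0.21 (SE) turned to 0.17 without WT replicate 1. Within hyphenated names it was 0.16 and within plain names -0.61.

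Nfat5 itself (chromosome 8, 107293470 to 107379517, plus strand, 16 exon blocks) was at 88.2, 85.9 and 74.5 CPM in I-PpoI replicates 1 to 3, against 81.9, 70.1 and 68.8 CPM in WT replicates 1 to 3. The groups overlapped, and hyphenated libraries were the lowest in each. Its log2 fold change was 0.17 ± 0.10 (SE), with 0.10 within hyphenated and 0.09 within plain names. Transcript levels do not report the activity of the factor, which is known to be controlled in large part after transcription.

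**Figure D2:**
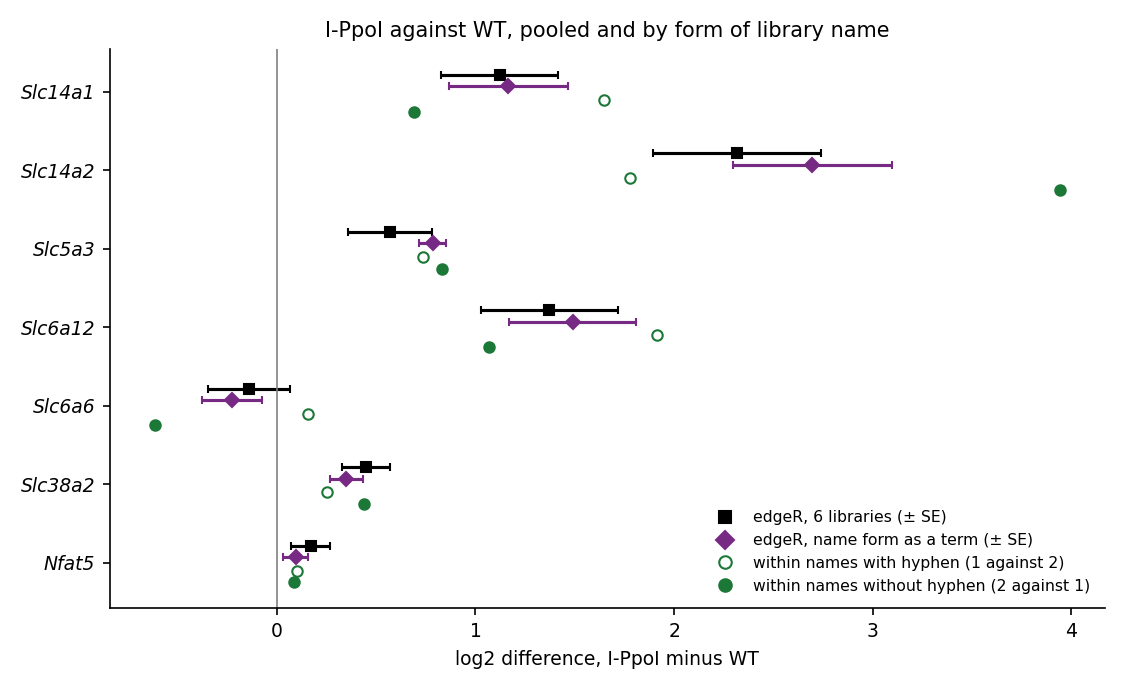
Log2 difference, I-PpoI minus WT, for each gene: the edgeR fit on 6 libraries (black squares, ± SE), the fit with the name form as a term (purple diamonds, ± SE), and differences of mean log2 CPM within libraries whose names have a hyphen (open circles) or not (filled circles). Slc14a2 lies farthest to the right in both fits and within plain names, Slc6a12 (1.91) within hyphenated names, and Slc6a6 changes side between the forms.

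Per exon length, Slc6a6 had the highest level of the 7 genes in both groups, at 80.1 ± 7.70 RPKM in I-PpoI and 88.3 ± 29.7 RPKM in WT (SD, n = 3 each, as for the levels that follow). In I-PpoI cortex it was followed by Slc14a2 (17.6 ± 2.16 RPKM), Slc38a2 (13.8 ± 2.11), Slc5a3 (12.7 ± 3.10), Nfat5 (6.16 ± 0.545), Slc6a12 (1.76 ± 0.607) and Slc14a1 (1.12 ± 0.305). Neighbours whose RPKM ranges overlapped there were Slc38a2 with Slc5a3, and Slc6a12 with Slc14a1. In WT cortex the order after Slc6a6 was Slc38a2 (10.1 ± 0.871 RPKM), Slc5a3 (8.54 ± 2.10), Nfat5 (5.48 ± 0.538), Slc14a2 (3.59 ± 2.22), Slc6a12 (0.693 ± 0.274) and Slc14a1 (0.518 ± 0.158). The ranges of Slc38a2 and Slc5a3, of Nfat5 and Slc14a2, and of Slc6a12 and Slc14a1 overlapped in WT. Slc14a2 ranked 2 in I-PpoI and 5 in WT, and the other genes kept their order among themselves.

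Genes with the most similar profiles were sought by the same root mean square difference among 12509 genes with a mean of at least 1 CPM. This describes 6 libraries only, which all the genes share. For Slc14a2, whose own root mean square deviation was 1.44, the nearest were Tnn (0.54), Corin (0.72), Cdkn2b (0.73), Wnt7b (0.78) and Slc4a11 (0.79). Tnn encodes a matrix glycoprotein, Corin a serine protease that processes natriuretic peptide, Cdkn2b a cell cycle inhibitor, Wnt7b a Wnt ligand and Slc4a11 a membrane transporter. For Slc5a3, with a deviation of its own of 0.41, the nearest were Shank1 (0.13), Myof (0.15), Ifit3 (0.15), Fabp3 (0.16) and Ifit1 (0.16), where Ifit1 and Ifit3 are interferon-stimulated genes. Those of Slc14a1 were Ssc5d (0.20) and Spag5 (0.26), and those of Slc6a12 were Fst (0.22), the gene for follistatin, and again Spag5 (0.25). Slc6a6 was nearest to Ppard (0.08) and Afp (0.08), Slc38a2 to Impa2 (0.03) and Soga1 (0.04), and Nfat5 to Prdx4 (0.02) and Mterf4 (0.02). Impa2, an inositol monophosphatase, is also on the list of inositol genes below.

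Genes that make, break down or respond to osmolytes, and genes of urea and arginine metabolism, were listed by function. The lists were drawn up with earlier results of these data known, so their calls are not independent of this contrast. Of 35 such genes 31 were tested, and edgeR called 1 higher and 0 lower in I-PpoI over all genes (by DESeq2, 4 higher and 1 lower; with the name form as a term, 3 higher and 1 lower). Log2 fold changes were above 0 for 14 genes and below 0 for 17, and the median log2 fold change was -0.04, against 0.0004 over all genes. The 17 include Ass1, whose count is uncertain because it shares most of its exon bases with another gene. The gene called was Cryab, a small heat shock protein that hypertonicity is known to induce. It was at 154, 150 and 131 CPM in I-PpoI replicates 1 to 3, against 48.7, 77.2 and 62.4 CPM in WT replicates 1 to 3, with no overlap. It rose by 1.21 ± 0.15 on the log2 scale (SE; edgeR adjusted p = 0.0389), with 0.92 within hyphenated and 1.64 within plain names. Its call was lost without I-PpoI replicate 1 or 2 and without WT replicate 1 or 3. Of its exon bases 20.55% are shared with Hspb2 on the opposite strand, and the counting did not use strand.

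The list of other NFAT5 targets holds 7 genes, and its median log2 fold change was 0.40. It was above 0 for 5 and below 0 for 2, against 50.1% and 49.9% of all genes. In I-PpoI 4 were higher throughout (Cryab, Hspa1a, Hspa1b and Ranbp3l) and 1 lower throughout (Hspa4l), against 9.23% and 7.74% of all genes. Log2 fold changes were 0.40 ± 0.12 for Ranbp3l and -0.13 ± 0.09 for Hspa4l (SE). Besides Cryab none was called over all genes by edgeR, while DESeq2 called Hspa1b (chosen after its values were seen), an inducible chaperone, at 20.5 ± 1.11 CPM in I-PpoI and 13.8 ± 2.53 CPM in WT (edgeR adjusted p = 0.2014). Hspa1b is near-identical to Hspa1a, so the counts of the 2 genes are uncertain.

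Sorbitol is made by aldose reductase, the product of Akr1b3, and removed by sorbitol dehydrogenase, the product of Sord. Akr1b3 was listed at 0 in all 6 libraries. Of its exon bases 96.43% are also exon bases of Gm6644 on the same strand, likewise at 0, and the counting command named no option to count reads that overlap several genes. No level of Akr1b3 is given. Sord was at 1762, 1634 and 1461 CPM in I-PpoI replicates 1 to 3, against 2263, 2417 and 2323 CPM in WT replicates 1 to 3. All I-PpoI libraries lay below all WT libraries. On the log2 scale the difference was -0.53 ± 0.11 (SE; edgeR adjusted p = 0.1462), and -0.56 ± 0.09 with the name form as a term, where it passed (edgeR adjusted p = 0.0452).

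For myo-inositol, none of 6 genes was called by edgeR and the median log2 fold change was 0.17, with 3 above 0 and 3 below. Isyna1, the synthase that makes inositol phosphate from glucose 6-phosphate, was at 78.7, 82.8 and 59.2 CPM in I-PpoI replicates 1 to 3, against 54.8, 45.3 and 46.4 CPM in WT replicates 1 to 3. The groups did not overlap. Its log2 fold change was 0.59 ± 0.13 (SE; edgeR adjusted p = 0.1906), and the edgeR adjusted p was 0.0461 once the name form was added. Impa2 was at 16.5 ± 2.27 CPM in I-PpoI and 11.9 ± 0.843 CPM in WT (SD, n = 3 each; edgeR adjusted p = 0.2437).

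No gene of the remaining osmolyte lists was called by edgeR. For the 3 glycerophosphocholine genes the median log2 fold change was -0.04, with Gdpd1 at 0.18 ± 0.21 and Pnpla6, the phospholipase that makes glycerophosphocholine, at -0.06 ± 0.08 (SE). The 5 betaine genes had a median of -0.08. Chdh, which oxidises choline towards betaine, was at 235 ± 14.0 CPM in I-PpoI and 289 ± 10.9 CPM in WT (SD, n = 3 each; log2 fold change -0.30 ± 0.08, edgeR adjusted p = 0.2320). Of its exon bases 8.93% are shared with Cacna1d on the opposite strand. Aldh7a1, the next enzyme of that path, had a log2 fold change of -0.08 ± 0.09 (SE). The 3 taurine genes had a median of -0.09, with Csad at -0.10 ± 0.08 and Ado at -0.09 ± 0.09 (SE). Both encode enzymes of taurine synthesis.

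Of 9 genes of the urea cycle and arginine metabolism 6 were tested, none was called by edgeR, and the median log2 fold change was -0.07. That median includes Ass1 (-0.73 ± 0.43, SE), which shares 95.16% of its exon bases with Gm5424 on the same strand, so its count is uncertain. The untested Cps1, Arg1 and Otc had 72, 65 and 9 read pairs in WT replicate 3, against 0 to 3 in every other library. The cause was not tested. Arg2, the mitochondrial arginase that releases urea from arginine in kidney, was at 18.7, 14.95 and 18.2 CPM in I-PpoI replicates 1 to 3, against 10.3, 6.28 and 7.37 CPM in WT replicates 1 to 3. The groups did not overlap. The log2 fold change was 1.10 ± 0.18 (SE; edgeR adjusted p = 0.0757; 0.0491 once the name form was added), with 1.42 within hyphenated and 0.71 within plain names. It shares 20.11% of its exon bases with Vti1b on the opposite strand. Agmat, agmatinase, was at 9.84, 9.99 and 3.05 CPM in I-PpoI replicates 1 to 3, against 3.95, 3.71 and 2.34 CPM in WT replicates 1 to 3. I-PpoI replicate 3 lay among the WT libraries (edgeR adjusted p = 0.3295).

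**Figure D3:**
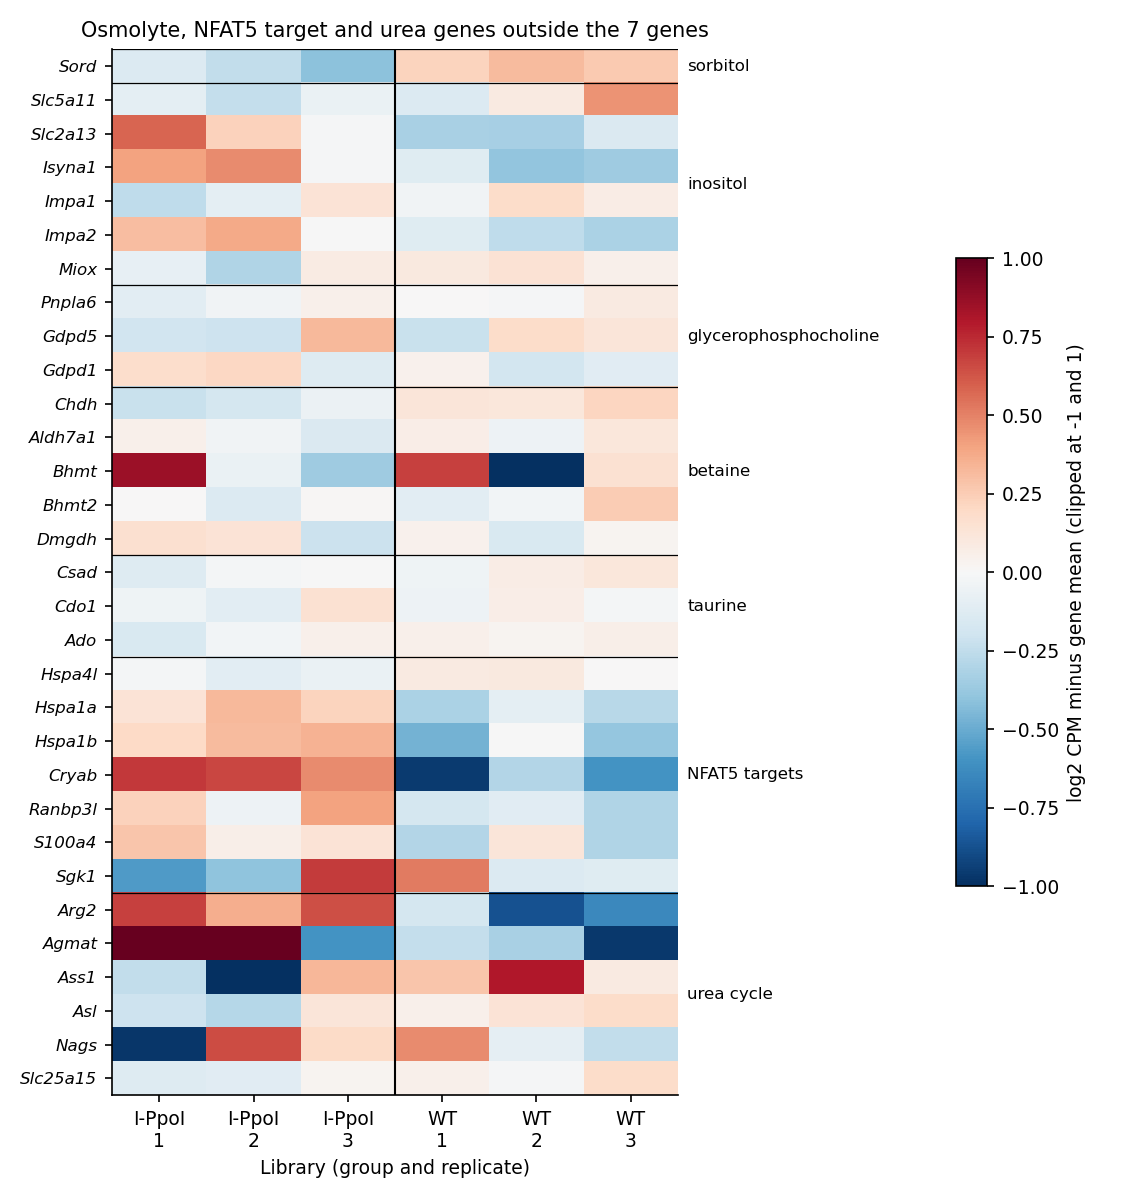
Log2 CPM minus the mean of each gene (colour, clipped at -1 and 1) for the 31 tested genes of osmolyte, NFAT5 target and urea lists (rows), in I-PpoI libraries (left) and WT libraries (right). Cryab and Arg2 are red in I-PpoI and blue in WT, Sord the reverse, and Sgk1 divides the libraries within each group.

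Relatives of the transporters and of Nfat5 were taken by symbol. Of 43 relatives 31 were tested and edgeR called none in either direction, also after adding the name form. Their median log2 fold change was -0.10. Medians were -0.20 for 9 Slc5a genes, -0.10 for 11 Slc6a genes, 0.001 for 7 Slc38a genes and 0.06 for 4 Nfatc genes. The smallest p in each family belonged to the monocarboxylate carrier gene Slc5a8 and to Slc5a9 (log2 fold changes -0.55 ± 0.14 and -0.29 ± 0.12), to Slc6a17 and the glycine carrier gene Slc6a9 (0.44 ± 0.10 and -0.33 ± 0.11), to Slc38a10 and Slc38a6 (-0.15 ± 0.11 and 0.22 ± 0.18), and to Nfatc4 and Nfatc2 (0.58 ± 0.22 and 0.09 ± 0.17; all SE). The lowest edgeR adjusted p among them was 0.1887.

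Marker genes of the cell types that carry urea transporters or lie beside them were listed too, again with earlier results of these data known. Of 4 thin limb genes 3 were tested, all with log2 fold changes above 0, against 50.1% of all genes. Of these, 2 were higher throughout in I-PpoI, against 9.23% of all genes. Among them edgeR called 2 higher (Slc4a11 and Cryab, named after their values were seen, log2 fold changes 1.71 and 1.21, edgeR adjusted p = 0.0229 and 0.0389). Cryab is also on the list of NFAT5 targets. The thin limb genes had a summed level of 150.4 to 175 CPM in I-PpoI and 55.5 to 85.0 CPM in WT. Most of that sum was Cryab, at 131 to 154 CPM in I-PpoI and 48.7 to 77.2 CPM in WT. Epha7 overlapped between the groups (log2 fold change 0.12 ± 0.39, SE), and Slc4a11 did not. All 8 principal cell genes of the collecting duct had log2 fold changes above 0, against 50.1% of all genes. Of the 8, 7 were higher throughout in I-PpoI, against 9.23% of all genes. Among them edgeR called 2 higher (Avpr2 and Aqp4, likewise named afterwards, edgeR adjusted p = 0.0385 and 0.0496). The sum of the 8 was 920 to 1033 CPM in I-PpoI and 652 to 687 CPM in WT. The 5 thick ascending limb genes all had log2 fold changes above 0, and 4 were higher throughout in I-PpoI (50.1% and 9.23% of all genes). They summed to 6063 to 6249 CPM in I-PpoI and 4208 to 4710 CPM in WT, with 0 called by edgeR (2 higher with the name form as a term). These calls were among the 19 over all genes, of which 0 were kept without I-PpoI replicate 1 or 2 or without WT replicate 1 or 3. None of these markers was at 0 throughout a group. The groups did not overlap for any of these 3 sums, and the part of these cell types in the urea and osmolyte values was not tested. In bulk tissue, more cells of a type and more RNA per cell cannot be told apart.

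The other lists hold markers of proximal tubule, cortex, vessels, red cells and urothelium. The 8 proximal tubule genes were abundant, at a sum of 12225 to 16018 CPM in I-PpoI and 15672 to 19434 CPM in WT. Their median log2 fold change was -0.26, with none called by edgeR. All 8 had log2 fold changes below 0, against 49.9% of all genes, and 2 were lower throughout, against 7.74% of all genes. Genes of segments and cells found in cortex only had a median of 0.06 over 6 genes, with sums of 4897 to 7753 CPM in I-PpoI and 6887 to 9257 CPM in WT. Slc34a1 and Slc5a2 of this list are also on the proximal tubule list. Slc34a1 made up most of the sum, at 3628 to 6495 CPM in I-PpoI and 5410 to 7985 CPM in WT. Endothelial genes, a class that takes in the Slc14a1-bearing descending vasa recta, had a median of 0.18 over 6 genes and sums of 575 to 602 CPM in I-PpoI and 486 to 530 CPM in WT. Urothelial genes, from a lining that also carries Slc14a1, summed to 4.86 to 10.5 CPM in I-PpoI and 3.61 to 14.8 CPM in WT. Among red cell genes only Alas2 was tested, at 5.08 to 18.6 CPM in I-PpoI and 6.79 to 14.4 CPM in WT. The red cell list summed to 5.08 to 18.6 CPM in I-PpoI and 6.93 to 14.6 CPM in WT. The 4 haemoglobin genes listed were at 0 in all libraries, and between 98.59% and 100% of the exon bases of each are shared with another gene of the count table. Only the endothelial sums of these 5 lists did not overlap between the groups.

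**Figure D4:**
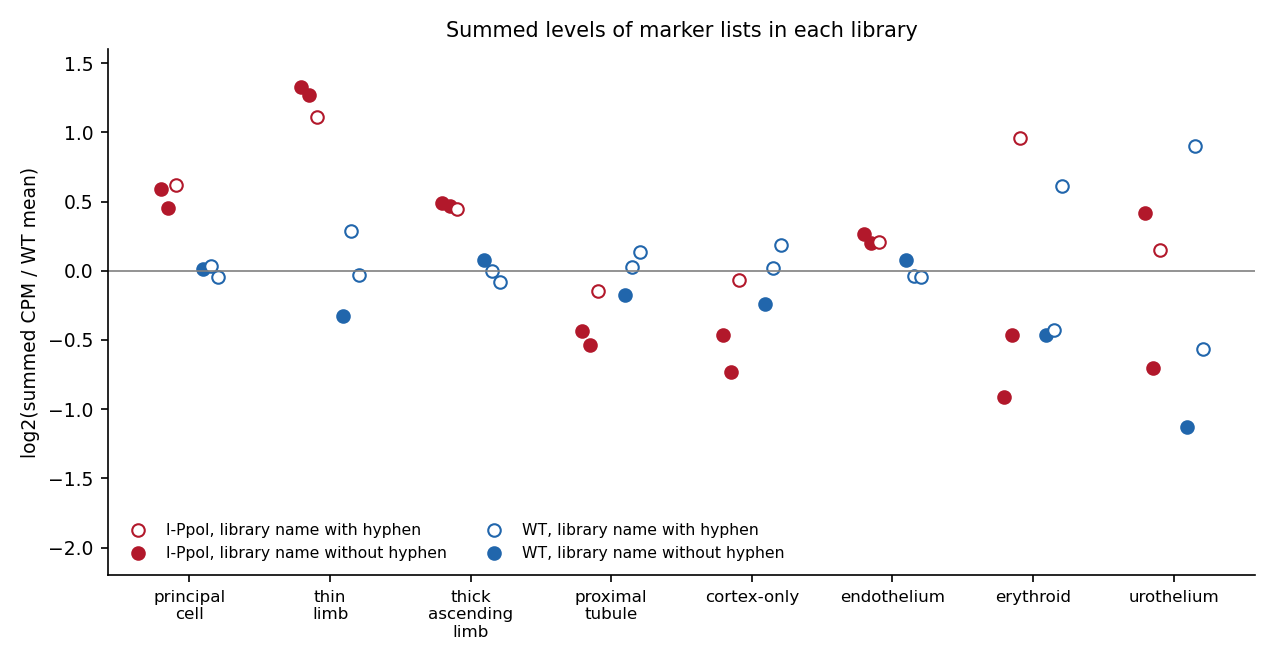
Log2 of the summed CPM of each marker list relative to its WT mean, per library (I-PpoI red, left; WT blue, right; open circles for hyphenated names). Thin limb, principal cell and thick ascending limb sums are higher in all 3 I-PpoI libraries than in any WT library, as are endothelial sums, and the other 4 lists overlap. Most of the thin limb sum is Cryab, and most of the cortex-only sum is Slc34a1.

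Between the forms of library name, with the group as a term, edgeR called 248 genes higher and 180 lower in hyphenated libraries (1.77% and 1.29%, or 3.06% of genes tested together). The forms were already known to separate these libraries. Among the 7 genes only Slc5a3 was called, at a log2 difference of 0.62 ± 0.07 (hyphenated minus plain, SE; edgeR adjusted p = 0.00296), and it was higher in hyphenated libraries in both groups. Slc14a2 (0.69 ± 0.40), Slc6a12 (0.45 ± 0.32) and Slc14a1 (0.18 ± 0.30) had positive differences, and Slc6a6 (-0.40 ± 0.15), Slc38a2 (-0.29 ± 0.08) and Nfat5 (-0.23 ± 0.06) negative ones, with edgeR adjusted p between 0.0994 and 0.7895.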

How the data were processed

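The authors deposited raw read pair counts per gene. Per the labels' protocols, libraries came from a stranded TruSeq mRNA kit, were read as pairs for 100 cycles and were mapped with HISAT2. Per the file headers, featureCounts 1.5.2 counted read pairs over exons with both mates mapped and no strand option. The header names mm10 and the labels mm9; 99.39% of 23159 genes matched by symbol overlapped their GRCm38.p6 (mm10) position, against 11.7% of 20805 in NCBIM37 (mm9), so coordinates are mm10. The authors also deposited log2 (rlog) values for 17918 genes, with DESeq2 named in the submitters' processing notes, used only for an alternative.

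Counts were analysed in R 4.3.3 with edgeR 4.0.16: its expression filter (minimum count 10), TMM factors and the two-sided quasi-likelihood test, Benjamini-Hochberg adjustment over 13977 genes, threshold 0.05. The procedure was tested on simulated counts that held group differences but no difference between name forms. That test therefore does not give the error rate of the calls in these libraries. CPM scale the deposited counts by library totals times TMM factors, and RPKM also divide by exon length. Low counts limit precision for Slc14a1 and Slc6a12. The 7 genes and all lists were chosen with earlier results of these data known. Named genes are the 7, overlapping genes, called genes of each list or else the 2 with the smallest p, and the nearest profiles (5 for Slc14a2 and Slc5a3, 2 otherwise), leaving out predicted genes. Alternatives were other size factors and filters, DESeq2 1.42.0, limma 3.58.1 on rlog values, the name form or the replicate number as a term, and leaving out each library. 1 marker gene is not reported here and is left out of its list.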

Additional observations from a re-analysis of the deposited data

Results flagged for a closer look

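Among the 7 genes and the 31 tested osmolyte, NFAT5 target and urea genes, the difference between I-PpoI and WT ran in opposite directions within the 2 forms of library name, in every library, for 3 genes. The cell type markers and the relatives also hold such genes, which are not counted here. For Slc6a6 it was 0.16 on the log2 scale within hyphenated names and -0.61 within plain names. For Sgk1, a kinase gene induced by aldosterone and cell shrinkage, it was 0.83 within hyphenated names and -1.005 within plain names. For Dmgdh, an enzyme of betaine breakdown, it was -0.15 within hyphenated names and 0.10 within plain names. Sgk1 was at 186 CPM in the hyphenated I-PpoI library, against 104 and 105 CPM in hyphenated WT libraries, and at 77.2 and 86.4 CPM in plain I-PpoI libraries, against 164 CPM in the plain WT library. These 3 genes were singled out after their values were seen. Each form holds 3 libraries, and the difference between the forms in these effects was not tested.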

How the results depend on the processing

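Over all genes the number called higher in I-PpoI, 19 in the report, was 44 with no filter on low counts, 126 by DESeq2, 49 with the name form as a term, 33 with the replicate number as a block, and 0 to 261 when each library was left out. The number called lower, 0 in the report, was 3 with no filter, 61 by DESeq2, 15 with the name form, 7 with the block, and 0 to 364 when each library was left out. Higher calls were 0 without I-PpoI replicate 1 or 2 or WT replicate 3, 2 without WT replicate 1, 9 without WT replicate 2, and 261 (364 lower) without I-PpoI replicate 3. For the 31 osmolyte, NFAT5 target and urea genes, 2 were higher with no filter (Arg2 and Cryab), 4 by DESeq2, 3 with the name form as a term, 2 with the replicate block, and 0 to 5 on leaving out libraries. Other size factors, the CPM filter and limma on rlog values each called 1 higher (Cryab). Lower calls among the 31 were 1 by DESeq2 and 1 with the name form (Sord each time), and 0 to 2 on leaving out libraries. Between name forms, DESeq2 called 434 genes higher in hyphenated libraries, and leaving out libraries gave 72 to 546 higher and 52 to 284 lower. The cause of these shifts was not tested.

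The median log2 fold change of the 7 genes stayed between 0.25 (rlog values, which shrink low genes) and 0.78 (name form as a term) over 14 alternatives, or between 0.52 and 0.69 on leaving out libraries. Slc14a2 ranged over 1.33 to 2.75 and was called in 6 of the 14. Slc5a3 (0.34 to 0.78), Slc6a12 (0.28 to 1.66) and Slc38a2 (0.25 to 0.57) were called in 1 each. Slc14a1 (0.24 to 1.30), Nfat5 (0.09 to 0.25) and Slc6a6 (-0.28 to 0.17) were called in none. The 6 settings that called Slc14a2 called 2 to 261 genes higher and 0 to 364 lower over all genes. The 7 genes were chosen in this contrast, so nothing is read from these calls. The direction changed only for Slc6a6, without WT replicate 1. Deviations from the group mean had r = 0.22, -0.13 and 0.16 over genes between libraries numbered 1, 2 and 3. Between libraries of unlike number r was -0.27 to 0.18. These values cannot decide whether the numbers pair libraries, since libraries numbered 1 or 3 also share their name form. The replicate block called none of the 7 genes. The Slc5a3 difference between name forms held in all 11 alternatives run for it (0.58 to 0.675).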

Other observations

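Several genes in the table have nearly all their exon bases assigned to a second gene on the same strand. Besides Akr1b3 (96.43%, with Gm6644), they are Ass1, the argininosuccinate synthase of the urea cycle (95.16%, with Gm5424), and the haemoglobin genes Hbb-bs (98.59%), Hbb-bt (100%), Hba-a1 (99.46%) and Hba-a2 (98.76%). Ass1 was at 0.44 to 1.56 CPM in I-PpoI and 1.29 to 2.20 CPM in WT, while Asl, the next enzyme of the cycle, was at 244 to 322 CPM in I-PpoI and 307 to 337 CPM in WT. These genes were noticed after their values were seen.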
